A study of Homo sapiens with 8 samples.

Results

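The effect of dTAG-13 on the transcriptome of TAL1-FKBP12 Jurkat cells was measured over both states of a second drug, GSI. All 8 of the 8 libraries of the series entered this comparison: 4 made from cells that had received dTAG-13, against 4 made from cells that had not. Jurkat is a widely used human cell line of T-cell acute lymphoblastic leukaemia, T-ALL, and every library came from Jurkat cells in which TAL1 carries an FKBP12 tag, grown in medium with tetracycline-free serum. The 4 treatments, all of 24 hours, were DMSO, the solvent control (2 libraries), dTAG-13 (2 libraries), GSI (2 libraries), and dTAG-13 together with GSI (2 libraries, called the combination). GSI commonly stands for gamma-secretase inhibitor, and such compounds stop NOTCH receptors from being cleaved into their active form. The comparison therefore set dTAG-13 and combination libraries against DMSO and GSI libraries, with the presence of GSI as a second, additive factor.

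TAL1 is a basic helix-loop-helix transcription factor of blood stem and progenitor cells that is silent in normal maturing thymocytes and is switched on in many cases of T-ALL. It binds DNA at E-boxes, short sites with the letters CANNTG, as a dimer with an E protein (TCF3 or TCF12), in a complex with LMO, GATA3, RUNX1 and MYB. E proteins acting without TAL1 drive thymocyte genes such as those of the V(D)J recombinase and the pre-T-cell receptor. dTAG-13 is a small molecule that binds the FKBP12 tag with one end and the cereblon ubiquitin ligase with the other, so that the tagged protein is degraded.

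Total counts ran from 17544319 to 22180009 per library, and 15646 genes of the 63677 in the table passed the filter on low counts and were tested. TAL1 mRNA stood at 154 and 166 CPM (counts scaled to library size) with DMSO, 145 and 147 with dTAG-13, 208 and 198 with GSI, and 197 and 199 with the combination. The libraries separated narrowly without GSI and overlapped with it, and the pooled log2 fold change of TAL1 was -0.08 ± 0.05 (SE; edgeR adjusted p = 0.915). dTAG-13 acts on the protein, which these data do not hold, so TAL1 mRNA does not check the labels. Cells without the tag that received dTAG-13 are not analysed here, so loss of TAL1 and other effects of dTAG-13 cannot be told apart. T-lineage markers (11 genes) summed to 3260 to 3690 CPM without dTAG-13 and 3180 to 3640 CPM with it. The 10 B-lineage markers summed to 244 to 480 CPM without dTAG-13 and 228 to 373 CPM with it. The 19 erythroid and megakaryocytic markers summed to 17.4 to 20.3 CPM without dTAG-13 and 16.4 to 21.4 CPM with it. The 12 epithelial and stromal markers summed to 4.04 to 6.76 and 3.73 to 4.75 CPM. The 12 myeloid markers summed to at most 1.01 CPM in any library, with MPO and S100A8 at 0 in all 8. Whether the 2 libraries of a group are separate cultures is not stated in the labels, so the spread behind the p-values is that of these samples and may be technical.

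With dTAG-13, 97 genes fell and 22 rose, 119 in all. That is 0.62% and 0.141% of the 15646 genes tested, or 0.761% together (edgeR quasi-likelihood test, 2-sided, adjusted p under 0.05 by Benjamini-Hochberg over all genes tested). Most changes were small. The median log2 fold change was -0.449 among the genes that fell and 0.476 among those that rose, against 0.00255 over all genes tested. A fold of at least 2 was reached by 14 genes that fell and 4 that rose, while 61 and 14 stayed under 1.5-fold. At an unadjusted p under 0.05 the same fit held 625 lower and 423 higher genes, 6.7% of those tested. In bulk RNA, less RNA per cell and fewer cells expressing a gene cannot be told apart.

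Each of the 119 genes had the same sign in both GSI states of a model with 4 groups. These genes were called from the same 8 libraries, so this sign and the orderings that follow are largely fixed by the call and are given as a description. For all 97 lower genes, both libraries with dTAG-13 lay below both without it in cells with GSI and again in cells without GSI, an ordering that 4.51% of all tested genes showed. For all 22 higher genes they lay above in both states, against 3.15% of all tested genes. Over all 8 libraries at once, 50 of the lower and 13 of the higher genes did not overlap, against backgrounds of 1.55% and 1.07%. The plot of the effect in one GSI state against the effect in the other shows these genes along the line of equal effects.

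**Figure D1:**
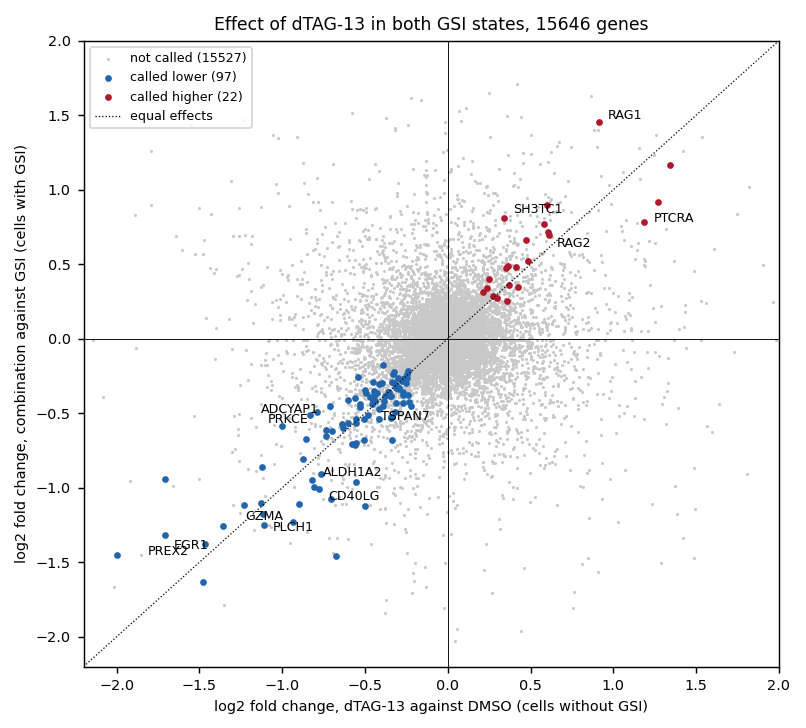
Each point is 1 of 15646 genes, with the log2 fold change of dTAG-13 against DMSO (cells without GSI) on the x axis and of the combination against GSI (cells with GSI) on the y axis. The 97 genes called lower (blue) lie at the lower left and the 22 called higher (red) in the upper right, with RAG1 at 0.91 and 1.45; 22 genes, 1 of them called, lie outside the plotted range.

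The leading genes include those whose promoters are shown here, the 6 called genes with the widest change among a fixed set of TAL1, NOTCH and thymocyte genes whose promoters were found in the reference. They are shown because TAL1 and E proteins both bind E-boxes. Which start of each gene these cells used was not tested, so a window may not be the promoter in use. Each line gives the 250 bases before the start of the gene from RefSeq (GRCh38.p14), 5′ to 3′ on the strand of the gene, with E-boxes (CANNTG, a pattern that matches both strands at once) in capitals. The windows are RAG1 chr11:36510103-36510352 on the plus strand, RAG2 chr11:36598237-36598486 on the minus strand, PTCRA chr6:42915803-42916052 on the plus strand, PLCH1 chr3:155745072-155745321 on the minus strand, ALDH1A2 chr15:58065712-58065961 on the minus strand, SIX6 chr14:60508896-60509145 on the plus strand.
RAG1: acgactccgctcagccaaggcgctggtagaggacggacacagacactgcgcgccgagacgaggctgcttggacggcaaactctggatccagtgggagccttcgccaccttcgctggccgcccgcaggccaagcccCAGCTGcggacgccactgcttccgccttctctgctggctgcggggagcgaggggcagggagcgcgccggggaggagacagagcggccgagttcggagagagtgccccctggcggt
RAG2: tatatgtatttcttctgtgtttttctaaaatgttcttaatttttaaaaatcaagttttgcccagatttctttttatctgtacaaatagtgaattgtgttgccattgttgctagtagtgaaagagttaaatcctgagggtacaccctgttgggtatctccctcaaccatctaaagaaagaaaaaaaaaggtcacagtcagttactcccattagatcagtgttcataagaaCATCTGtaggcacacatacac
PTCRA: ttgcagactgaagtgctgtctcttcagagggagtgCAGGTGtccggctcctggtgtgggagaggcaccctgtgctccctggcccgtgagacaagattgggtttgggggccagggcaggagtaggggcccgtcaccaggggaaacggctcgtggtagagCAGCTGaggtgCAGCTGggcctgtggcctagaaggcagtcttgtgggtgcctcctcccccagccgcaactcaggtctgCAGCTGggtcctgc
PLCH1: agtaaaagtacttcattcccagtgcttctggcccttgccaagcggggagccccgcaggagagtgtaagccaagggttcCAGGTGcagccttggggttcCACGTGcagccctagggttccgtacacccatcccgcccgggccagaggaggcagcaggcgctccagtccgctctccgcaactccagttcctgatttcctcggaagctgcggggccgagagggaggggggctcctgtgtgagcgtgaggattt
ALDH1A2: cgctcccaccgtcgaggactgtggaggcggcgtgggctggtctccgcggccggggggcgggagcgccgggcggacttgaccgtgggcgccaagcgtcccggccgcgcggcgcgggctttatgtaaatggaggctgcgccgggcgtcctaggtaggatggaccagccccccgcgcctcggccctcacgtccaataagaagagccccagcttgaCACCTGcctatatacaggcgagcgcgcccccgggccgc
SIX6: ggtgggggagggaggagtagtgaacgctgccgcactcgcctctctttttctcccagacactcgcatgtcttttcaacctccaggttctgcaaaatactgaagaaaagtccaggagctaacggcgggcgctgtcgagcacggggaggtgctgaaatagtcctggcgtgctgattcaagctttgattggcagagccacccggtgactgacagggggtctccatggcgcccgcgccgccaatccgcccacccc
RAG1, which rose, has 1 E-box of the form CAGCTG in this window, 115 bases before the start. PTCRA, which rose, has 4, of which 3 read CAGCTG (92, 81 and 14 bases before the start) and 1 reads CAGGTG (215 bases before). RAG2, which rose, has CATCTG at 21 bases. PLCH1, which fell, has CAGGTG at 172 bases and CACGTG at 152 bases, and ALDH1A2, which fell, has CACCTG at 38 bases. The window of SIX6, which fell, holds 0 matches. E-boxes are common: 68.9% of the 27305 promoters of 300 bases in the reference hold CANNTG, 17.7% hold CAGCTG and 20.6% hold CAGGTG. The GATA letters AGATAA and the RUNX letters TGTGGT, searched on both strands, are in 10.5% and 13.1% of those promoters; among the 6 windows AGATAA occurs once, in RAG2, and TGTGGT in 0. Among the 10732 tested genes with a promoter in the reference the shares are lower: 60.5% hold CANNTG, 17% CAGCTG, 18.5% CAGGTG, 4.95% AGATAA and 9.74% TGTGGT. A comparison of motif shares between changed and other genes is void, since promoters were matched for 65 of the 97 lower genes, less than the 80% required for it.

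PLCH1, a phospholipase C that cleaves a membrane lipid into calcium and protein kinase C signals, had the smallest p of all genes. It stood at 11.3 and 11.1 CPM with DMSO and 5.21 and 5.13 with dTAG-13. With GSI it stood at 27.3 and 25.9 CPM, and with the combination at 11.5 and 11.9. Both dTAG-13 libraries were less than both DMSO libraries, and both combination libraries less than both GSI libraries, while the combination lay close to DMSO. The pooled change was a 2.22-fold decrease (log2 fold change -1.15 ± 0.08, SE; edgeR adjusted p = 6.35e-06).

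CD40LG, the T-cell ligand that activates B cells and dendritic cells through CD40, stood at 88.8 and 84.3 CPM with DMSO and 48.5 and 52.5 with dTAG-13. It stood at 68.9 and 67.8 CPM with GSI and 32.5 and 35.5 with the combination. All 4 libraries with dTAG-13 lay below all 4 without, at a log2 fold change of -0.89 ± 0.07 (SE; edgeR adjusted p = 7.31e-06). ALDH1A2, an enzyme that makes retinoic acid and a reported TAL1 target in T-ALL, stood at 139.8 and 128.6 CPM with DMSO, 75.5 and 76.3 with dTAG-13, 189 and 159 with GSI, and 98.1 and 82.7 with the combination. It too fell without overlap of the 4 and 4 libraries, at a log2 fold change of -0.89 ± 0.07 (SE; edgeR adjusted p = 1.62e-05). These 3 genes passed in each of the 8 fits that left out 1 library, with the highest adjusted p at 5.56e-04 for ALDH1A2. Of the 16 other measured TNF ligands and receptors listed with CD40LG, 0 were called. For all 17 the called share is 5.88%, against 0.62% of all genes. An unadjusted p under 0.05 in edgeR was reached by 9 of the 17, against 6.7% of all genes tested. Over all 8 libraries, 4 of the 17 lay below and 1 above without overlap, against 1.55% and 1.07% of all genes.

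**Figure D2:**
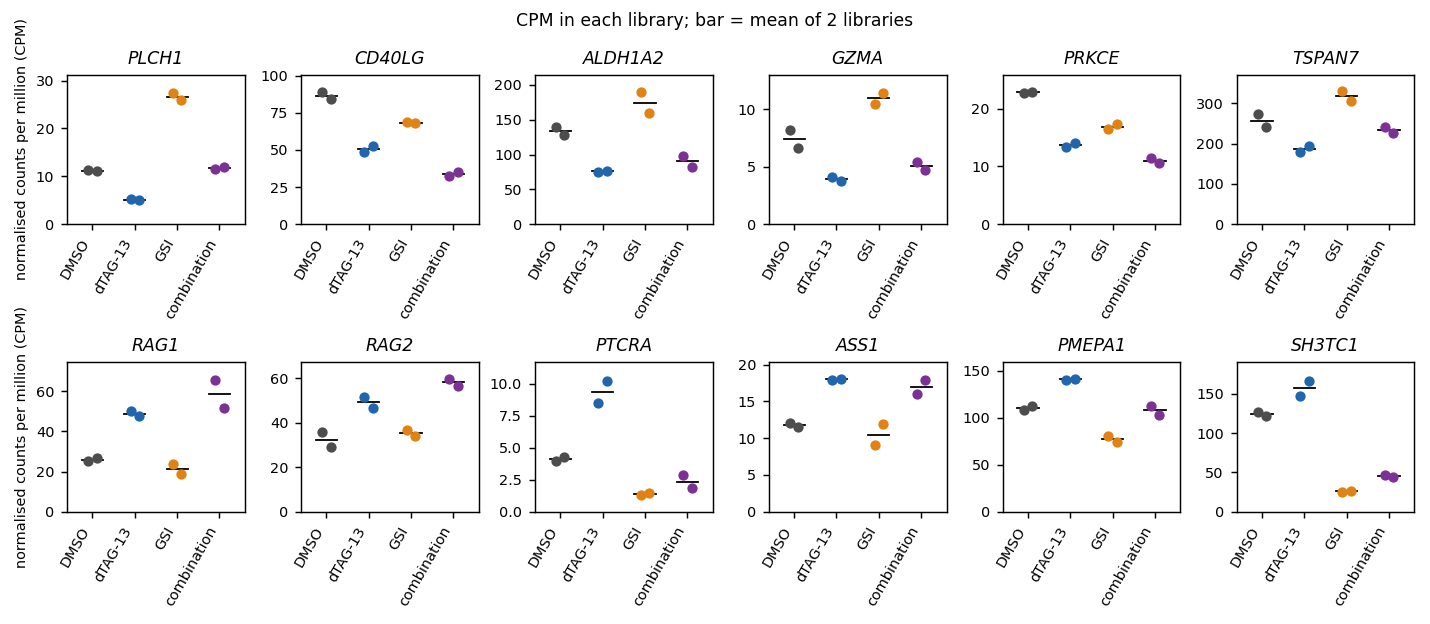
Normalised CPM (y axis, linear from 0) in each of the 8 libraries by treatment, for 6 genes that fell and 6 that rose with dTAG-13; points are libraries and bars the mean of 2. In every panel the dTAG-13 points lie on one side of the DMSO points and the combination points on the same side of the GSI points, while SH3TC1, PTCRA and PLCH1, among others, differ more between GSI states than with dTAG-13.

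The gene lists, here and below, were chosen with earlier results of these data known. Their shares of called genes beside those of all genes are a description, and no test of a list was run. Genes that earlier work described as switched on by TAL1 in T-ALL were the next group. Of 14 measured, 6 fell (42.9%, against 0.62% of all genes), 0 rose, and the other 8 were not called. All 14 log2 fold changes were negative, with a median of -0.22, while 49% of all genes were negative. TSPAN7, a tetraspanin of the cell membrane, stood at 272 and 240 CPM with DMSO, 179 and 193 with dTAG-13, 330 and 305 with GSI, and 242 and 227 with the combination. The drop was seen in each GSI state, at a pooled log2 fold change of -0.45 ± 0.06 (SE; edgeR adjusted p = 0.00178). The homeobox gene SIX6 fell (-0.49 ± 0.07, adjusted p = 0.00362), as did STAT5A (-0.64 ± 0.09, adjusted p = 0.00262), which carries cytokine signals to the nucleus.

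MYB, a transcription factor of the TAL1 complex itself, fell least of the 6. It stood at 324 and 336 CPM with DMSO, 288 and 266 with dTAG-13, 355 and 330 with GSI, and 281 and 276 with the combination. The 4 libraries with dTAG-13 lay below the 4 without, at a log2 fold change of -0.28 ± 0.05 (SE; edgeR adjusted p = 0.0238). The other partners had values that did not pass: RUNX1 -0.17 (adjusted p = 0.537), GATA3 -0.12 (0.755), TCF12 0.02 and TCF3 0.01 (0.998 each); TCF12 and TCF3 changed sign when single libraries were left out. ARID5B, a further reported target, was at -0.27 (adjusted p = 0.15). The MYB call was lost without either DMSO library, either dTAG-13 library, GSI replicate 1 or combination replicate 2 (adjusted p between 0.0622 and 0.163).

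The next list holds genes that are switched on by the RAS-ERK pathway, several of which feed back on it. Of 21 measured ERK feedback and immediate early genes, 6 fell (28.6%, against 0.62% of all genes), 0 rose and 15 were not called, and 17 of 21 were negative, with a median of -0.24. ETV5, an ETS factor induced by ERK, stood at 7.34 and 6.31 CPM with DMSO and 4.05 and 3.36 with dTAG-13, and at 15.8 and 13.4 CPM with GSI and 9.91 and 6.71 with the combination. The libraries with dTAG-13 were lower in each GSI state, at a pooled log2 fold change of -0.83 ± 0.13 (SE; edgeR adjusted p = 0.00518). SPRED2, an inhibitor of RAS-ERK signalling, stood at 71.4 and 67.1 CPM with DMSO, 51.7 and 51.0 with dTAG-13, 79.1 and 68.9 with GSI, and 59.0 and 56.1 with the combination, with no overlap of the 4 and 4 libraries (-0.40 ± 0.06, adjusted p = 0.00466).

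The other 4 members that fell were expressed at low levels. EGR1, an immediate early transcription factor, stood at 2.54 and 1.63 CPM with DMSO, 0.599 and 0.653 with dTAG-13, 2.72 and 1.64 with GSI, and 0.745 and 1.01 with the combination. Its pooled log2 fold change was -1.49 ± 0.25 (SE; edgeR adjusted p = 0.00962), the widest decrease among the genes named here, with DMSO replicate 1 and GSI replicate 1 well above their partners. SPRY4, a further inhibitor of this pathway, had a mean of 2.10 CPM without dTAG-13 and 0.918 with it (-1.22 ± 0.21, adjusted p = 0.0123). DUSP6, the phosphatase of ERK, was at -0.84 ± 0.16 (adjusted p = 0.0232), and CD69, a surface antigen of early T-cell activation, at -0.78 ± 0.14 (adjusted p = 0.0123). All 4 calls depended on single libraries. EGR1 was lost without DMSO replicate 1 or GSI replicate 1 (adjusted p = 0.0529 and 0.0524), SPRY4 without any of the 4 DMSO and dTAG-13 libraries (0.0527 to 0.0636), and CD69 without DMSO replicate 1, GSI replicate 1 or combination replicate 1 (0.0505 to 0.0663). DUSP6 was lost whichever of the 8 libraries was left out (0.0505 to 0.0919). With DMSO replicate 1 left out, 2 of the 21 members were called. The remaining 15 members had no call, among them JUN at 0.13 and JUNB at -0.01.

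**Figure D3:**
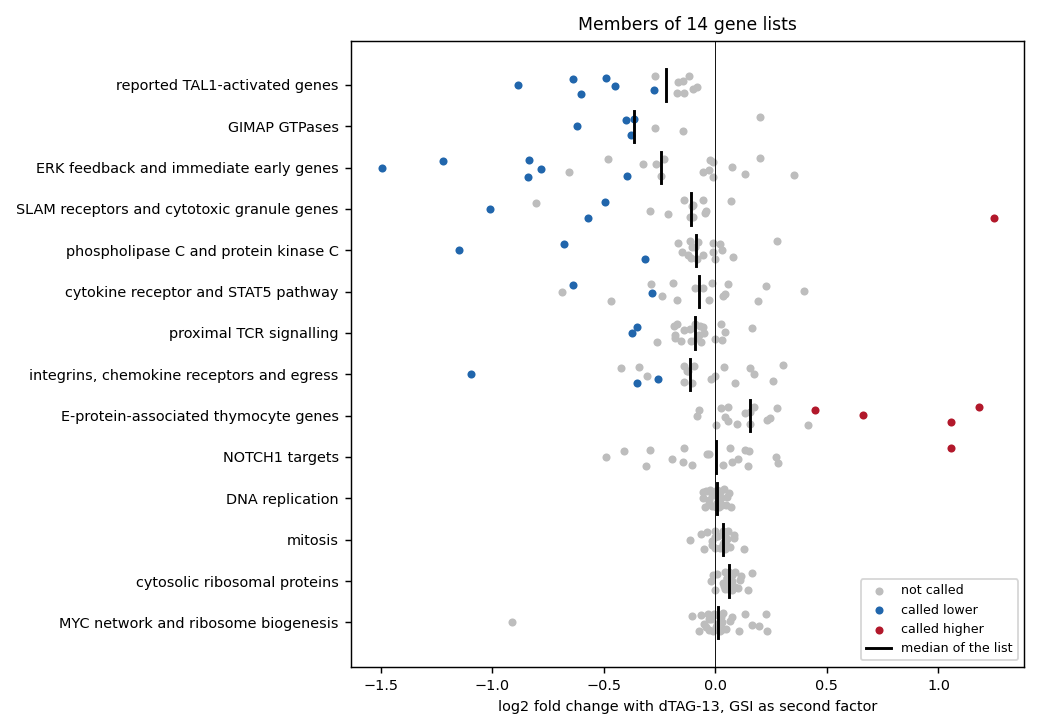
Log2 fold change with dTAG-13 (x axis, GSI as second factor) of the measured members of 14 gene lists (rows). Points are genes, blue if called lower, red if called higher and grey if not called, and bars are list medians; the medians of reported TAL1-activated, GIMAP and ERK feedback genes lie at -0.22, -0.37 and -0.24, and those of DNA replication and mitosis genes at 0.01 and 0.03.

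GIMAP genes encode small GTPases of lymphocytes that act in T-cell survival. Of 7 measured, 4 fell (57.1%, against 0.62% of all genes) and 0 rose, with a median of -0.37. GIMAP1 stood at 31.1 and 30.2 CPM with DMSO and 21.5 and 20.2 with dTAG-13, and at 18.9 and 21.8 CPM with GSI and 11.5 and 13.5 with the combination. It was lower with dTAG-13 in each GSI state (-0.62 ± 0.08, SE; edgeR adjusted p = 0.00167). GIMAP4 (-0.40 ± 0.06, adjusted p = 0.00348), GIMAP7 (-0.38 ± 0.07, 0.0139) and GIMAP5 (-0.37 ± 0.06, 0.00887) also fell, while GIMAP8 was at 0.20 with no call. GIMAP genes are related in sequence, and whether their counts share reads was not tested. GIMAP5 was lost without DMSO replicate 1 or dTAG-13 replicate 1 (adjusted p = 0.0663 and 0.0609) and GIMAP7 without any of the 4 DMSO and dTAG-13 libraries (0.0636 to 0.0969); without DMSO replicate 1 or dTAG-13 replicate 1, 2 of the 7 genes were called.

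Second messengers downstream of the T-cell receptor (TCR) run through phospholipase C and protein kinase C. Of 20 measured genes of these families, 3 fell (15%, against 0.62% of all genes) and 0 rose, with a median of -0.09. Besides PLCH1 these were PRKCE, which encodes protein kinase C epsilon, and PRKD2, a kinase that protein kinase C activates. PRKCE stood at 22.8 and 22.9 CPM with DMSO, 13.3 and 14.1 with dTAG-13, 16.5 and 17.3 with GSI, and 11.4 and 10.6 with the combination. All 4 libraries with dTAG-13 lay below all 4 without (-0.68 ± 0.08, SE; edgeR adjusted p = 5.07e-04). PRKD2 changed less (-0.31 ± 0.05, adjusted p = 0.00808) and was lost without DMSO replicate 1 (adjusted p = 0.0519). Of 23 measured genes of proximal TCR signalling, 2 fell (8.7%, against the same 0.62%): SLA, an adaptor that dampens TCR signalling (-0.37 ± 0.06, 0.00986), and LCP2, the adaptor SLP-76 (-0.35 ± 0.06, 0.0172). A further 17 were negative without a call, and the list median was -0.09. SLA was lost without either DMSO library or dTAG-13 replicate 1 (0.0522 to 0.0586), and LCP2 without either DMSO library, dTAG-13 replicate 2 or GSI replicate 1 (0.0524 to 0.0821), so 0 of the 23 were called without either DMSO library.

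Among T-cell receptor chains, TRAC, the constant part of the alpha chain, fell (-0.36 ± 0.07, SE; edgeR adjusted p = 0.0211), as did the variable segment TRAV8-4 (-0.39 ± 0.07, 0.0227). TRAC stood at 82.8 and 78.1 CPM with DMSO, 63.0 and 62.3 with dTAG-13, 202 and 223.5 with GSI, and 148 and 184 with the combination. The groups separated within each GSI state and overlapped across them. The list of the pre-TCR, TCR chains and CD3 held 2 genes that fell and 1 that rose, of 8 measured. These are 25% and 12.5%, against 0.62% and 0.141% of all genes. Of the 8, 4 were positive and 4 negative, with a median of -0.007. An unadjusted p under 0.05 in edgeR was reached by 4 of the 8, against 6.7% of all genes tested. CD5, a surface receptor that restrains TCR signals, fell by 0.29 on the log2 scale (adjusted p = 0.0161). It was 1 of 4 among 16 measured T-lineage surface antigens that fell (25%, against 0.62% of all genes), CD69 and CD34 among them. Of the 16, 0 rose. CD69 is also counted in the ERK list above, and the calls of CD69 and CD34 depended on single libraries. The calls of TRAC, TRAV8-4 and CD5 were lost when any 1 of the 4 DMSO and dTAG-13 libraries was left out. Those of TRAC and TRAV8-4 were also lost without combination replicate 1.

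Receptors of the SLAM family and cytotoxic granule genes held 3 members that fell and 1 that rose of 16 measured, with a median of -0.11. These are 18.8% and 6.25%, against 0.62% and 0.141% of all genes. GZMA, granzyme A, stood at 8.20 and 6.58 CPM with DMSO, 4.15 and 3.73 with dTAG-13, 10.5 and 11.4 with GSI, and 5.45 and 4.70 with the combination. It fell 2.02-fold with no overlap of the 4 and 4 libraries (log2 fold change -1.01 ± 0.12, SE; edgeR adjusted p = 5.07e-04). The receptors CD84 (-0.49 ± 0.07, adjusted p = 0.00198) and LY9 (-0.57 ± 0.10, 0.0142) fell. GZMH, a related granzyme, rose from a mean of 0.661 CPM without dTAG-13 to 1.56 CPM with it (1.25 ± 0.25, 0.0252), the opposite direction to GZMA. LY9 was lost without DMSO replicate 1 or either dTAG-13 library (0.067 to 0.0735), and GZMH without DMSO replicate 2, either dTAG-13 library, GSI replicate 1 or combination replicate 1 (0.0711 to 0.129).

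Of 20 genes of adhesion, chemotaxis and exit from lymphoid tissue, 3 fell (15%, against 0.62% of all genes). An unadjusted p under 0.05 in edgeR was reached by 9 of the 20, against 6.7% of all genes tested. Those that fell include the chemokine receptor CCR4 (-1.10 ± 0.16, SE; edgeR adjusted p = 0.00348) and the integrin subunit ITGA4 (-0.35 ± 0.06, 0.00962). CCR4 stood at 2.89 and 2.72 CPM with DMSO, 1.66 and 1.26 with dTAG-13, 3.94 and 4.49 with GSI, and 1.91 and 1.68 with the combination, without overlap of the 4 and 4 libraries. CXCR4, the main chemokine receptor of T-ALL cells, was at 0.17 with no call (0.382). ITGA4 overlaps CERKL, so their reads may not be told apart, and was lost without either DMSO library or dTAG-13 replicate 2 (0.0522 to 0.0691).

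Of the 18 measured genes of cytokine receptors and the STAT5 pathway, STAT5A and STAT5B fell (11.1%, against 0.62% of all genes) and 0 rose. STAT5A stood at 12.4 and 13.2 CPM with DMSO, 8.48 and 8.62 with dTAG-13, 10.6 and 10.9 with GSI, and 6.98 and 6.18 with the combination. STAT5B was more abundant and changed less (-0.28 ± 0.06, SE; edgeR adjusted p = 0.0243). Both genes separated the 4 and 4 libraries, and STAT5A passed in each fit that left out a library. STAT5B was lost without either DMSO library, either dTAG-13 library, GSI replicate 1 or combination replicate 2 (0.0545 to 0.18). These 2 genes are neighbours that overlap in the RefSeq annotation and are close in sequence, so some reads may be shared. TOX (-0.28 ± 0.06, 0.027) and TOX2 (-0.64 ± 0.13, 0.0304), DNA-binding proteins of developing T cells, fell. They were the 2 called of 21 thymocyte transcription factors (9.52%, against 0.62% of all genes). Of the 21, 10 were positive and 11 negative, with a median of -0.03. An unadjusted p under 0.05 in edgeR was reached by 5 of the 21, against 6.7% of all genes tested. TOX was lost in 6 of the 8 leave-out fits, all but those without dTAG-13 replicate 1 and GSI replicate 2 (0.06 to 0.193), and TOX2 in 7, all but that without combination replicate 2 (0.053 to 0.148).

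Among the other genes that fell most were PREX2, an exchange factor for RAC, and KIAA1462, which encodes a cell junction protein. PREX2 stood at 1.62 and 2.31 CPM with DMSO, 0.737 and 0.699 with dTAG-13, 4.60 and 4.15 with GSI, and 1.72 and 1.63 with the combination (-1.41 ± 0.18, SE; edgeR adjusted p = 0.00121). Both dTAG-13 libraries lay below both DMSO libraries and both combination libraries below both GSI libraries. KIAA1462 (-1.30 ± 0.17, adjusted p = 0.00198), the nucleotide pyrophosphatase ENPP1 (-1.16 ± 0.16, 0.00286), the semaphorin SEMA4A (-0.92 ± 0.13, 0.00357), the keratin KRT1 (-0.90 ± 0.11, 6.57e-04) and the neuropeptide gene ADCYAP1 (-0.84 ± 0.13, 0.004) passed in all 8 fits that left out a library. CD34, a surface antigen of blood progenitors, fell (-0.84 ± 0.17, 0.0279), from a mean of 3.76 CPM to 2.06 CPM, but passed in 0 of these 8 fits (0.0537 to 0.113).

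**Figure D4:**
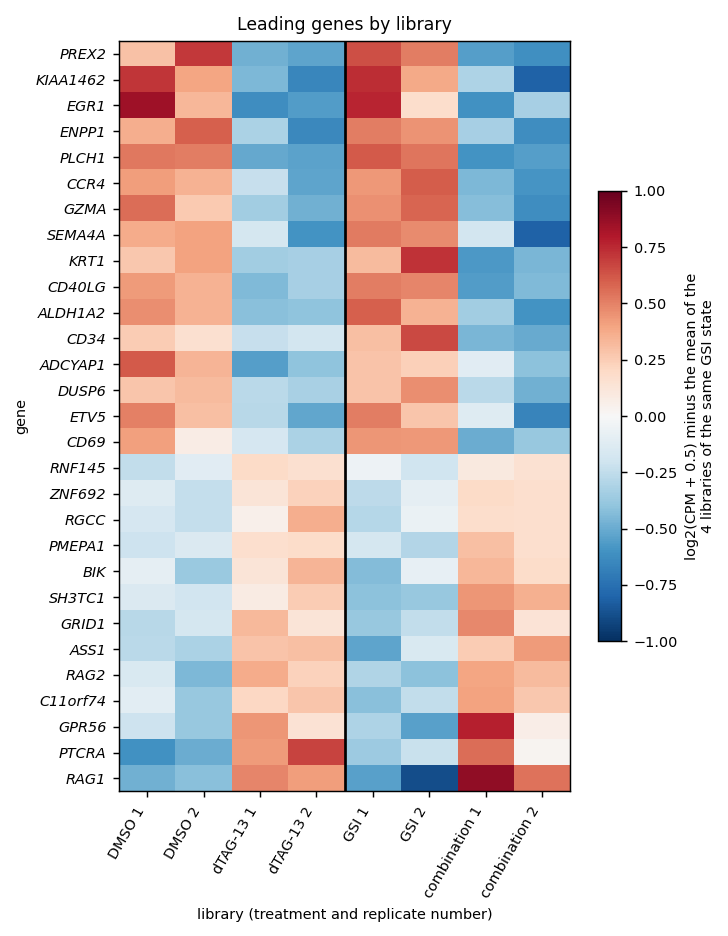
Log2(CPM + 0.5) of 16 genes that fell and 13 that rose (rows) in each of the 8 libraries (columns), minus the mean of the 4 libraries of the same GSI state (colour, blue below and red above). In each GSI state (left and right of the black line) the 2 libraries without dTAG-13 and the 2 with it have opposite colours in each row shown.

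The genes that rose were led by the V(D)J recombinase, the enzyme that cuts antigen receptor genes for rearrangement. RAG1 stood at 25.4 and 26.6 CPM with DMSO and 50.1 and 47.8 with dTAG-13. With GSI it stood at 24.0 and 18.8 CPM, and with the combination at 65.6 and 51.5. Every library with dTAG-13 was higher than every library without, and the pooled change was 2.27-fold (log2 fold change 1.18 ± 0.12, SE; edgeR adjusted p = 5.07e-04). RAG2, the other subunit, stood at 35.7 and 28.9 CPM with DMSO, 51.5 and 46.6 with dTAG-13, 36.7 and 34.0 with GSI, and 59.6 and 56.4 with the combination. The 4 and 4 libraries of RAG2 did not overlap either (0.66 ± 0.07, adjusted p = 5.07e-04). RAG2 overlaps C11orf74 in the RefSeq annotation, and the strand setting used for counting is not stated in these sources, so reads of the 2 cannot be told apart. C11orf74, a low transcript at 2.27 CPM without dTAG-13 and 3.64 CPM with it, rose by a like amount (0.69 ± 0.15, adjusted p = 0.0403) but was lost whichever library was left out (0.0721 to 0.218).

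PTCRA encodes the invariant alpha chain of the pre-T-cell receptor. It stood at 3.93 and 4.27 CPM with DMSO, 8.52 and 10.2 with dTAG-13, 1.27 and 1.45 with GSI, and 2.84 and 1.82 with the combination. It was higher with dTAG-13 in each GSI state, but the combination stayed below DMSO. PTCRA is also a NOTCH1 target, and it was lower with GSI (log2 fold change -1.84). The pooled log2 fold change was 1.05 ± 0.16 (SE; edgeR adjusted p = 0.00398). RAG1, RAG2 and PTCRA passed in all 8 fits that left out a library.

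RAG1, RAG2 and PTCRA were among the 4 called members of a list of 20 thymocyte genes associated with E-protein activity. The share is 20%, against 0.141% of all genes, and 0 members fell. In all, 18 of the 20 were positive, with a median of 0.16. The uncalled members included DNTT at 0.23 (edgeR adjusted p = 0.109), CD4 at 0.42 (0.44) and CD8A at 0.25 (0.944). Of the E proteins and their ID inhibitors, 0 of 7 measured genes were called, and 6 were positive. At an unadjusted p under 0.05 in edgeR there were 3 of the 7, against 6.7% of all genes tested, and DESeq2 called 1, ID3. ID3, which encodes an inhibitor of E proteins, stood at 88.8 and 83.9 CPM with DMSO, 99.9 and 118 with dTAG-13, 50.1 and 63.5 with GSI, and 68.9 and 79.7 with the combination. Its log2 fold change of 0.36 ± 0.08 (SE) missed the threshold in edgeR (adjusted p = 0.0584) and passed it in DESeq2 (0.00917), and in edgeR without GSI replicate 2 (0.0153) or combination replicate 1 (0.0498). Over all settings tried its adjusted p ran from 9.67e-06 with no filter on low counts to 1 with no term for GSI.

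Of the other genes that rose, GPR56, an adhesion receptor, stood at 28.7 and 25.3 CPM with DMSO, 45.1 and 36.7 with dTAG-13, 25.3 and 21.4 with GSI, and 54.2 and 32.9 with the combination (0.75 ± 0.14, SE; edgeR adjusted p = 0.0232). All libraries with dTAG-13 were higher than those without, with combination replicate 1 far above its partner. ASS1, an enzyme of arginine synthesis, rose 1.57-fold (0.65 ± 0.09, 0.00286), and PMEPA1, an inhibitor of TGF-beta signalling, rose 1.33-fold (0.41 ± 0.06, 0.00262). SH3TC1 stood at 126 and 122 CPM with DMSO, 148 and 167 with dTAG-13, 25.3 and 25.9 with GSI, and 46.2 and 43.5 with the combination (0.55 ± 0.09, 0.00601). ASS1, PMEPA1 and SH3TC1 passed in all 8 leave-out fits. GPR56 was lost without DMSO replicate 2, dTAG-13 replicate 1 or either GSI library (0.117 to 0.193).

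Smaller increases were seen in GRID1, a glutamate receptor subunit (0.56 ± 0.10, SE; edgeR adjusted p = 0.0142), RGCC, a regulator of the cell cycle (0.38 ± 0.07, 0.0232), and RNF145, a ubiquitin ligase (0.30 ± 0.06, 0.0232). In the BCL2 family, BIK, which promotes cell death, rose (0.50 ± 0.10, 0.0226), and BCL2, which opposes it, fell (-0.37 ± 0.08, 0.0389). The other 11 measured members were not called, so 7.69% rose and 7.69% fell, against 0.141% and 0.62% of all genes. Of the 13 members 10 were positive, with a median of 0.11. When the mean of both states was taken in a model of 4 groups, 0 members of the family were called. ZNF692 (0.36 ± 0.06, 0.00847) was the 1 gene called among 13 of the cereblon ligase, FKBP12 and known cereblon substrates (7.69%, against 0.141% of all genes). CRBN was at -0.02 and FKBP1A at -0.06 (edgeR adjusted p = 0.998 and 0.994). All of these calls depended on single libraries. GRID1 was lost without DMSO replicate 1, dTAG-13 replicate 1 or GSI replicate 1 (0.0549 to 0.0788). RGCC was lost without either DMSO library, dTAG-13 replicate 2, GSI replicate 1 or combination replicate 1 (0.0505 to 0.157). RNF145 kept its call only without GSI replicate 1 or combination replicate 1 (0.0524 to 0.172 in the other fits). BIK was lost without DMSO replicate 2, dTAG-13 replicate 2, GSI replicate 1 or combination replicate 1 (0.0704 to 0.148). BCL2 kept its call only without combination replicate 1 (0.0523 to 0.259 in the other fits), and ZNF692 was lost without DMSO replicate 2 or dTAG-13 replicate 2 (0.0691 and 0.0542).

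Growth and housekeeping programmes held 0 called genes. In edgeR, 0 of 24 DNA replication genes, 0 of 24 mitosis genes, 0 of 29 genes of the MYC network and ribosome biogenesis, and 0 of 12 cell-cycle kinase, cyclin and inhibitor genes passed, with list medians of 0.01, 0.03, 0.01 and -0.03. At an unadjusted p under 0.05 in edgeR they held 0, 1, 4 and 5 genes, against 6.7% of all genes tested, and DESeq2 called 0 in each. The shares of the MYC network list and of the cell-cycle kinase, cyclin and inhibitor list lay above that 6.7%. MYC itself stood at 349 and 340 CPM with DMSO, 348 and 352 with dTAG-13, 170 and 190 with GSI, and 200.2 and 225 with the combination, and its log2 fold change of 0.13 ± 0.06 (SE) was not called (adjusted p = 0.784). Of 25 cytosolic ribosomal protein genes 22 were positive with 0 called (median 0.06), and this median ran from -0.01 to 0.14 when single libraries were left out. Heat shock, endoplasmic reticulum stress and interferon-stimulated genes also held 0 calls in 12, 21 and 20 measured genes (0, 4 and 2 at an unadjusted p under 0.05). Lipid synthesis, glycolysis and mitochondrial transcripts held 0 in 24, 23 and 13 (2, 3 and 0 at an unadjusted p under 0.05), and DESeq2 also called 0 in these 7 lists. The unadjusted shares of the endoplasmic reticulum stress, interferon-stimulated, lipid synthesis and glycolysis lists also lay above the 6.7% of all genes tested. In the class I antigen presentation list 1 of 14 genes fell (7.14%, against 0.62% of all genes). It was NLRC5, the activator of class I genes (-0.42 ± 0.08, edgeR adjusted p = 0.0161). Its call was lost when any 1 of the 4 DMSO and dTAG-13 libraries was left out.

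NOTCH1 targets are the genes on which GSI acts most directly. With dTAG-13, 1 of 20 measured was called, PTCRA, which rose (5%, against 0.141% of all genes). Of the 20, 10 were positive and 10 negative, with a median of 0.002. An unadjusted p under 0.05 in edgeR was reached by 6 of the 20, against 6.7% of all genes tested. HES1 was at -0.49 ± 0.13 (SE; edgeR adjusted p = 0.143) and NOTCH3 at 0.28 ± 0.10 (0.523). DTX1 stood at 137.7 and 154 CPM with DMSO, 99.5 and 104.5 with dTAG-13, 18.4 and 18.9 with GSI, and 19.7 and 17.0 with the combination. Its libraries separated without GSI (log2 fold change -0.52) and overlapped with GSI (-0.02). The pooled value was -0.31 ± 0.09 (adjusted p = 0.319), and DTX1 was called only when combination replicate 1 was left out (0.041) among the 8 fits that leave out a library.

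Whether the effect of dTAG-13 differed between cells with and without GSI was tested by the interaction of the 2 drugs. In edgeR 0 of 15646 genes passed, 260 (1.66%) had an unadjusted p under 0.05, and the smallest adjusted p was 1; DESeq2 also called 0, with 81 genes at an unadjusted p under 0.05. Without DMSO replicate 1, 1 gene passed. Within single states the same model called 3 genes without GSI (0.0192%) and 9 with GSI (0.0575%). That model used 1 spread per gene for both states, while fits of each state alone called 71 without GSI and 3 with it. These counts therefore do not rank the strength of the effect in the 2 states. Of the 119 genes of the pooled comparison, 2 had an unadjusted interaction p under 0.05. RAG1 stood 0.91 higher with dTAG-13 without GSI and 1.45 higher with GSI on the log2 scale (difference 0.54 ± 0.19, SE; edgeR adjusted p = 1). SH3TC1 stood 0.34 and 0.81 higher (difference 0.47 ± 0.12, edgeR adjusted p = 1). The median SE of this difference among the 119 genes was 0.159, and differences as large as those of RAG1 and SH3TC1 did not pass the test at this number of libraries. With no difference in any gene, a share of about 0.05 would have an unadjusted p under 0.05. The 1.66% found in edgeR is less, so the interaction test was cautious here. Its 0 calls therefore do not show that the effect is equal in both states.

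The 5 genes with the smallest interaction p and a mean of at least 2 CPM were LRRC46, GRASP, CHKB, SH3TC1 and the pseudogene ANKRD20A11P. LRRC46 stood at 3.0 and 3.81 CPM with DMSO, 4.79 and 5.36 with dTAG-13, 6.66 and 6.56 with GSI, and 4.84 and 4.94 with the combination, so its libraries separated in opposite directions in the 2 states (0.56 and -0.43; edgeR adjusted p = 1 for the difference). GRASP had the same signs (0.56 and -0.45), and CHKB (-0.25 and 0.89) and ANKRD20A11P (-0.71 and 0.34) the opposite ones. All 4 had a mean under 5 CPM, and 0 of them were called in the pooled comparison.

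The 2 states also give 2 comparisons with no library in common. Fitted on the 4 libraries without GSI alone, edgeR called 71 genes (0.474% of 14994), 12 higher and 59 lower, and 6.94% had an unadjusted p under 0.05. In the 4 libraries with GSI, which that choice did not use, all 71 had the same sign, against 57.3% of all 14694 genes measured in both, and 56 of the 71 had an unadjusted p under 0.05, against 2.53% of all genes tested there. Their median size was 0.50 on the log2 scale where they were called and 0.43 in the other state. Fitted on the 4 libraries with GSI alone, 3 genes were called (0.0198%), all of which were also called with the same sign without GSI. Across genes, the 2 sets of log2 fold changes had a Pearson correlation of 0.211, and of 0.429 over the 9377 genes with at least 10 CPM. Genes are not independent replicates, and library depth and replicate numbers are alike in the 2 sets.

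Set beside the effect of GSI, which was estimated from the same 8 libraries, genes of the dTAG-13 comparison had the following pairs of log2 fold changes. Both effects use the DMSO libraries, and the genes are examples chosen after their values were seen, so they do not show how often the 2 effects have the same or the opposite sign. GSI changed 1476 genes (9.43%; edgeR adjusted p under 0.05). PLCH1 was at -1.15 for dTAG-13 and 1.22 for GSI, ETV5 at -0.83 and 1.13, and TRAC at -0.36 and 1.41. CD40LG was at -0.89 and -0.45, and ADCYAP1 at -0.84 and -1.47. PTCRA was at 1.05 and -1.84, and SH3TC1 at 0.55 and -2.03. RAG1 was at 1.18 for dTAG-13 and 0.01 for GSI (edgeR adjusted p = 0.959 for GSI).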

How the data were processed

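RNA-seq of 8 libraries, 2 for each of 4 treatments, was re-analysed from a table of integer counts per gene deposited by the authors. Per the labels' protocols the libraries were strand-specific with paired-end reads; per the submitters' processing notes the tools were STAR 2.5.2a, featureCounts and DESeq2 1.12.4 on hg19. How featureCounts treated strand, and with which annotation, is not stated in these sources. Genes were kept by filterByExpr (15646, holding at least 99.891% of each library's counts) and scaled by TMM. They were fitted in edgeR 4.0.16 (R 4.3.3) with dTAG-13 and GSI as additive terms, with 5 residual degrees of freedom and a biological coefficient of variation of 0.0746. An interaction model had 4. Tests were 2-sided quasi-likelihood F-tests with robust dispersions and Benjamini-Hochberg adjustment at 0.05 over all genes tested. CPM use the TMM factors. No library was a copy of its partner. Chi-square per degree of freedom between replicates was 4.62 for DMSO, 6.12 for dTAG-13, 14 for GSI and 13.1 for the combination. Replicates thus differed more with GSI than without it.

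The comparison, the 36 gene lists and the settings were chosen with earlier results of these data known, and the lists carry no test. Named genes are the 15 highest and 15 lowest called genes (mean of 2 CPM or more, same sign in both GSI states), 23 fixed genes, the 4 smallest p per list and direction, and 5 genes by interaction p; 4 genes that this rule names are not reported here. The fits of 4 libraries alone were added after seeing the data. The edgeR test was checked on simulated data of 15417 genes with 200 changed: it recovered 71.5% of those changed 1.5-fold, 94% at 2-fold and 99% at 4-fold, with 6.93% false among its calls. The simulated counts took the spread of each gene from the fit, equal in both GSI states, while real replicates differed more with GSI. These rates therefore describe the simulated setting and may not hold for the real counts. Promoter sequences came from RefSeq (GRCh38.p14) by gene symbol. DESeq2 1.42.0 was used as an alternative test. The authors' 3 deposited comparison tables were not used.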

Additional observations from a re-analysis of the deposited data

How the results depend on the processing

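All 119 called genes kept their sign in the 7 other settings and in the 8 fits that left out 1 library, and 42 of them (36 lower, 6 higher) passed in each of those 8 fits. In these fits a group was left with 1 library, assumed to vary like the others, and the counts ran from 8 to 24 genes higher and from 42 to 85 lower, with the fewest higher without DMSO replicate 2 and the fewest lower without DMSO replicate 1. DESeq2's size factors gave 23 higher and 97 lower, DESeq2 itself 27 and 108 (117 of the 119 shared), no filter on low counts 53 and 137, dispersions without robust weighting 20 and 91, the mean of both states in a model of 4 groups 12 and 66, and no GSI term 2 and 4. The interaction test called 0 genes in each setting except without DMSO replicate 1, so leaving out libraries gave 0 to 1 below 0. Within the state without GSI, 0 genes were higher and 3 lower, against 11 and 40 with no filter, 3 and 21 in DESeq2, 12 and 59 in the 4 libraries of that state alone, and 0 to 2 and 0 to 5 over leave-outs. With GSI, 3 were higher and 6 lower, against 14 and 45 with no filter, 6 and 17 in DESeq2, 1 and 2 in the 4 libraries alone, and 2 to 3 higher and 3 to 5 lower over leave-outs.

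With the replicate number as a block, 35 genes were higher and 128 lower, including all 119, with 3 and 20 called without GSI and 6 and 28 with it. The labels do not say what a number marks, so the numbers were not taken to pair the samples. Correlations of replicate differences were 0.138 to 0.214 among the dTAG-13, GSI and combination groups and -0.108 to -0.03 between each of these and DMSO.

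Genes near 0 changed sign in the pooled comparison: log2 fold changes over the leave-outs ran from -0.02 to 0.031 for TCF3, from -0.007 to 0.061 for TCF12, from -0.121 to 0.128 for LRRC46 (-0.016 with no GSI term) and from -0.067 to 0.19 for GRASP.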

Other observations

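Several genes that changed with dTAG-13 lie next to each other in the genome. Of the 119 called genes, 116 could be placed in the RefSeq order of the 13992 tested genes that matched it, and 8 pairs were direct neighbours. Both members of each pair had the same sign. RAG2 (0.66) stands between RAG1 (1.18) and C11orf74 (0.69). PRKCE (-0.68) lies beside EPAS1 (-0.56), which encodes a low-oxygen transcription factor, and GIMAP1 (-0.62) beside GIMAP5 (-0.37), as GIMAP7 (-0.38) does beside GIMAP4 (-0.40).

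STAT5A (-0.64) lies beside STAT5B (-0.28), ITGA4 (-0.35) beside CERKL (-0.34), and HHIP, an inhibitor of hedgehog signalling (-0.41), beside its antisense transcript HHIP-AS1 (-0.31). EPAS1, CERKL, HHIP and HHIP-AS1 were named after their values were seen. EPAS1 stood at 8.89 and 9.94 CPM with DMSO, 7.37 and 5.50 with dTAG-13, 16.9 and 17.2 with GSI, and 11.7 and 11.3 with the combination (edgeR adjusted p = 0.0122), so it was lower with dTAG-13 in each GSI state. HHIP stood at 61.5 and 61.8 CPM with DMSO, 49.2 and 49.5 with dTAG-13, 96.5 and 91.6 with GSI, and 67.0 and 66.9 with the combination (edgeR adjusted p = 0.00262), also lower in each state. CERKL and HHIP-AS1 had an edgeR adjusted p of 0.0277 and 0.0398. HHIP passed in all 8 fits that left out a library. EPAS1 was lost without DMSO replicate 2 or dTAG-13 replicate 2 (0.0732 and 0.0537), HHIP-AS1 in all 8 (0.053 to 0.177), and CERKL in 6 of the 8 (0.0774 to 0.122), all but those without dTAG-13 replicate 1 and GSI replicate 2.

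RAG2 overlaps C11orf74, STAT5B overlaps STAT5A and ITGA4 overlaps CERKL in the annotation. How far shared reads, or for HHIP-AS1 reads of HHIP, enter these pairs was not tested. Whether 8 neighbouring pairs is more than the number among other genes was not tested either.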
